A study of Homo sapiens with 36 samples.

Results

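The genes of 5 Src-family kinases, SRC, YES1, FYN, LYN and LCK, were followed through 16 ChIP-seq peak lists. The genes were chosen by name, and every peak within 3 kb of an annotated start site, every peak across the gene body and every Jun-family peak within 100 kb of the gene was taken. The 5 genes were set beside all 20033 protein-coding genes scored, and the 55 Jun-family regions around them beside all 72011 Jun-family regions. The study compared A549, an established cell line from a human lung adenocarcinoma, with BEAS-2B (B2B), an established non-cancerous line of human bronchial epithelium. The labels give no treatment for either line. RNA polymerase II (pol II), H3K4me3, Med1, H3K27ac, JunB, Jun and JunD were measured in both lines, and CTCF and Rad21 were analysed in B2B. The 36 samples formed 18 groups of 2 replicates, and 4 samples were input chromatin. The replicates of each line and target had been merged before peaks were called, so each list is 1 pool, no test over samples could be made, and every A549 and B2B difference below is a difference between 1 pair of pools. Each line is also a single established line and stands for no other lung cancer or bronchial cells.

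Src-family kinases are membrane-anchored tyrosine kinases that pass signals from growth factor receptors, integrins and immune receptors. They share regulatory SH3 and SH2 domains in front of the kinase domain, and the C-terminal Src kinase CSK holds them inactive by phosphorylating their tail. SRC, YES1 and FYN are used by most tissues, LYN acts in B cells, myeloid cells and some epithelia, and LCK is the kinase beside the T cell receptor. AP-1 is a dimeric transcription factor built from Jun-family proteins (JunB, Jun and JunD) and Fos-family partners, and the sequence it recognises best is TGAGTCA, read as TGACTCA on the other strand. H3K4me3 and pol II mark active promoters, Med1 and H3K27ac mark active enhancers and promoters, and CTCF with the cohesin subunit Rad21 marks insulators.

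The sequences shown are those around the Jun-family summits that carry the contrast between SRC and FYN, with 2 sites bound in both lines beside them. Each is 101 bases of the plus strand of hg38, centred on the highest Jun summit of its region, with every AP-1 motif in capitals. The first is the strongest site in SRC, at chr20:37380412-37380512 in an intron, bound in A549 alone. The second lies just before an internal SRC start site, at chr20:37383552-37383652, and is bound in A549 alone. The third lies 49.5 kb before SRC, at chr20:37295149-37295249 in an intron of MANBAL, and is bound in both lines. The fourth lies in an intron of FYN, at chr6:111824149-111824249, and is bound in B2B alone. The fifth lies beyond the 3′ end of YES1, at chr18:702982-703082 in an intron of ENOSF1, and is bound in both lines.
SRC intron, A549 alone: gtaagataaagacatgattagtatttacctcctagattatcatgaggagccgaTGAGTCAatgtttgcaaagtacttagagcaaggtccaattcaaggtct
SRC internal start, A549 alone: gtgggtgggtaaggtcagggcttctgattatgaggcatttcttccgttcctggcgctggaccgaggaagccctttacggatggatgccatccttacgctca
Before SRC, both lines: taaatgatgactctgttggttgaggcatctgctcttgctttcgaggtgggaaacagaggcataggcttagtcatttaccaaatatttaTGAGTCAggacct
FYN intron, B2B alone: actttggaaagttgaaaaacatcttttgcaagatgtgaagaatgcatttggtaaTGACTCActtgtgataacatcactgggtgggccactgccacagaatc
Beyond YES1, both lines: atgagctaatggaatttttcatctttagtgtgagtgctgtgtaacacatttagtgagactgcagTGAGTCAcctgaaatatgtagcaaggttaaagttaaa
The centre of the motif lay 6 bp from the summit in the SRC intron, 7 bp in the FYN intron, 17 bp beyond YES1 and 41 bp at the site before SRC. The 101-base window at the internal SRC start held no AP-1 motif. Within 100 bp of the summit, all 3 A549 JunD peaks around SRC held one, the JunD peak of this site among them.

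Each peak carries a fold enrichment, which is the reads stacked at its summit over the local background of the peak caller, with 1 added to each. The reads at a summit and the local background were solved from the deposited fold enrichment and p-value. Because a fold enrichment depends on its list, a peak is also placed as a percentile among all peaks of its own list. Intervals on reads are exact Poisson 95% intervals and those on shares are Wilson 95% intervals, and both cover counting error only. The depth of the lists was not stated in the sources used here. The median summit held between 18 reads in the B2B Med1 list and 105 reads in the B2B H3K4me3 list. The lists held between 8563 peaks (B2B JunB) and 61225 peaks (B2B CTCF). In 4 lists the peaks ended before the end of the genome, so that SRC on chromosome 20 was not analysed here for A549 pol II, Med1 and H3K27ac or for B2B Med1, and YES1 on chromosome 18 was not analysed here for Med1 in either line or for A549 H3K27ac.

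The labelled cell types were checked by H3K4me3 at start sites. All 4 epithelial markers, KRT8, KRT18, CDH1 and EPCAM, held a peak in both lines. The basal bronchial keratin gene KRT5 held none in either line, and the basal transcription factor gene TP63 held 1 peak in A549 and none in B2B. Of the blood cell markers, PTPRC held 1 peak in A549 and none in B2B, and CD3E and SPI1 held none in either line.

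The promoters of SRC, YES1, FYN and LYN were marked by H3K4me3 in both lines, and that of LCK was marked in neither. H3K4me3 was thus found at 4 of the 5 genes in A549, where 73.7% of protein-coding genes had such a peak, and at 4 of 5 in B2B, where 62.8% did. Pol II was found at 3 of the 4 genes its A549 list reaches, against 69.6% of genes, and at 3 of 5 in B2B, against 50.9%. H3K27ac was found at 2 of 3 genes in A549, against 73.5%, and at 4 of 5 in B2B, against 64.9%. Med1 was found at 2 of 3 genes in each line, against 54.7% in A549 and 61.1% in B2B. In B2B, CTCF was found at 4 of 5 genes, all but YES1, against 50.1%, and Rad21 at all 5, against 67.9%. With so few genes these counts lie near the background, and they do not set the Src-family genes apart.

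**Figure D1:**
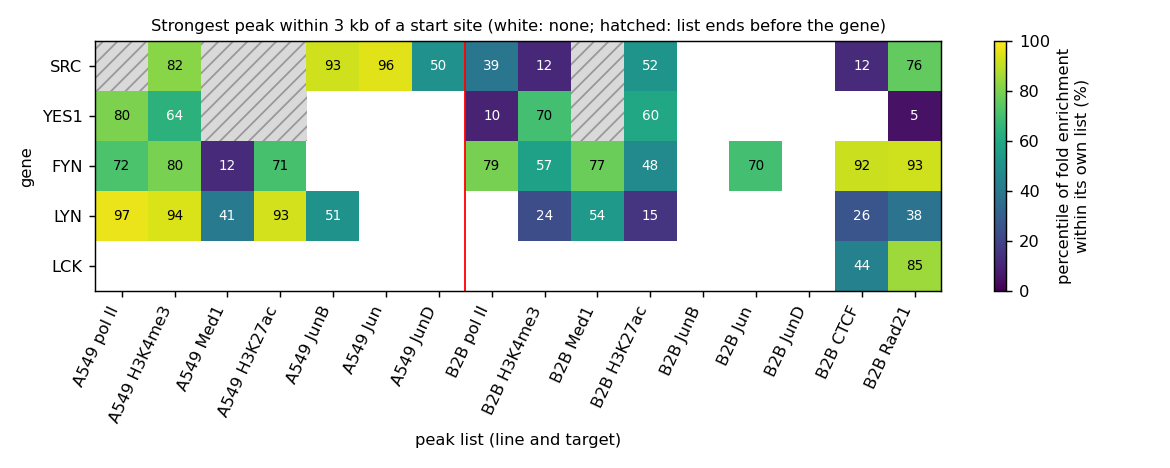
Strongest peak within 3 kb of any start site of each gene (rows) in each of the 16 peak lists (columns, A549 left of the red line, B2B right of it), coloured and labelled by its percentile of fold enrichment within its own list, in percent. White cells hold no peak and hatched cells belong to lists that end before the gene; LCK holds peaks of CTCF and Rad21 alone, and JunB, Jun and JunD stand together at SRC in A549.

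In A549 the strongest H3K4me3 peak at the canonical start reached 44.6-fold at LYN (percentile 94.5), 36.5-fold at SRC (82.2), 35.2-fold at FYN (79.8) and 25.5-fold at YES1 (64.4). The order by reads was different. The summits held 168 reads at SRC (144 to 195), 154 at YES1 (131 to 180), 152 at LYN (129 to 178) and 125 at FYN (104 to 149), and these intervals all overlap. The local background was 2.43 reads at LYN, 2.58 at FYN, 3.63 at SRC and 5.08 at YES1.

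In B2B the same 4 promoters had H3K4me3 summits over a much higher local background. The peak of highest fold enrichment held 152 reads at SRC (129 to 178), 157 at YES1 (133 to 184), 109 at FYN (89.5 to 131) and 72 at LYN (56.3 to 90.7). Its fold enrichment was 4.56 at YES1, 3.77 at FYN, 2.43 at LYN and 2.08 at SRC. A second peak at the same start held more reads over a still higher background at 3 of the genes, with 159 reads at SRC (135 to 186), 157 at FYN (133 to 184) and 108 at LYN (88.6 to 130). The local background at the peaks of highest fold enrichment was 72.4 reads at SRC, 33.7 at YES1, 29.1 at LYN and 28.2 at FYN, each above the largest background of the 4 genes in A549. Fold enrichments of H3K4me3, pol II and H3K27ac are therefore given side by side for the lines below, and no difference is read from them. The part of the background in peaks missing from B2B at start sites was not tested. By the B2B peak with the most reads, the intervals of all 4 genes overlapped between the lines. These reads include the local background, which for those B2B peaks was 82.6 reads at SRC, 59.8 at FYN and 59.3 at LYN. The overlap therefore does not show that the mark was alike in the 2 lines. Whether the reads of different lists are on a common scale of depth was not tested.

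**Figure D2:**
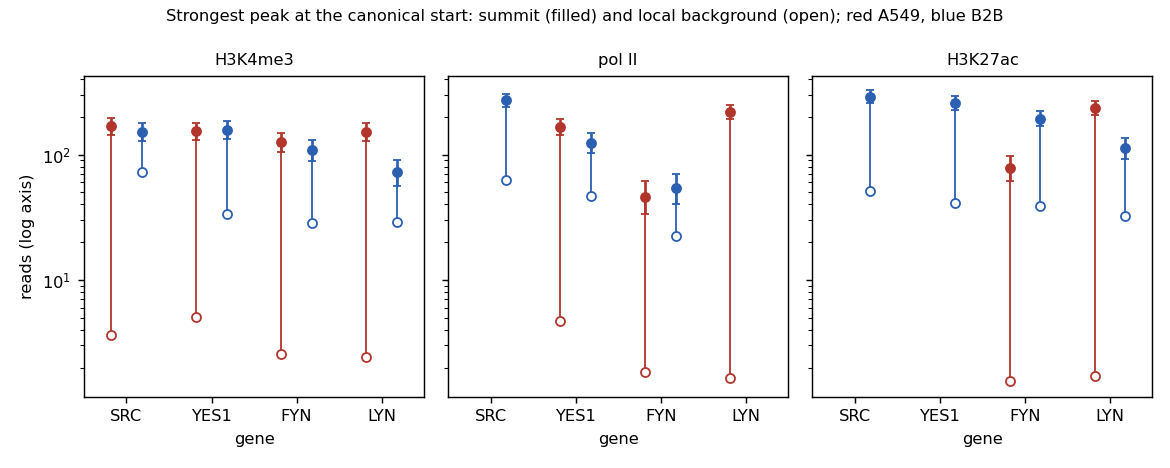
Reads at the summit (filled points, with exact Poisson 95% intervals) and local background of the peak caller (open points) for the peak of highest fold enrichment at the canonical start of each gene, on a log axis, in A549 (red) and B2B (blue). For H3K4me3 the A549 backgrounds lie between 2.43 and 5.08 reads and the B2B backgrounds between 28.2 and 72.4 reads, and a missing pair means no peak or a list that ends before the gene.

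LYN, which relays B cell and growth factor receptor signals, was marked at its start in both lines. In A549 this start, at chr8:55879835, held a pol II peak of 82.9-fold (percentile 97.1) with 219 reads (191 to 250) over 1.65. H3K27ac reached 86.6-fold (percentile 93.0) with 235 reads (206 to 267). In B2B the start held no pol II peak, H3K4me3 at no more than the 23.7 percentile and H3K27ac at 3.40-fold (percentile 15.4). A Med1 peak of 6.57-fold and 16 reads was still listed there in B2B, beside 2 Med1 peaks of 14 and 13 reads in A549. Of the 3 marked genes scored for pol II in both lines, LYN was the 1 with a pol II peak in A549 and none in B2B. The B2B pol II peaks at the canonical starts of YES1 and FYN stood low in their list, at percentile 9.53 and at no more than 5.39. At LYN the local background behind the B2B H3K27ac peak was 32.2 reads, against 1.72 reads in A549.

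YES1, a close relative of SRC, was marked at its canonical start, chr18:812242 on the minus strand, in both lines. Pol II gave 166 reads in A549 (142 to 193, 29.2-fold) and 124 reads in B2B (103 to 148, 2.63-fold). H3K27ac in B2B gave 258 reads (227 to 291, 6.17-fold). No peak of any list lay within 3 kb of its internal start 37.3 kb downstream. FYN, a kinase of T cell, neural and adhesion signalling, was marked by pol II, H3K4me3, Med1 and H3K27ac in both lines at chr6:111873452, again on the minus strand. Its A549 pol II peak was the lowest of the 3 genes with one, with 46 reads (33.7 to 61.4, 16.6-fold), and its A549 H3K27ac peak held 78 reads (61.7 to 97.3, 30.9-fold).

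LCK, the T cell kinase, held no peak of pol II, H3K4me3, Med1, H3K27ac or any Jun-family protein at its 12 start sites in either line. The only peaks within 3 kb were B2B CTCF (165 reads, 7.91-fold) and Rad21 (172 reads, 13.3-fold, percentile 85.3), 2.9 kb before the gene at chr1:32248214-32248459 for CTCF. A weak A549 Med1 peak of 13 reads (4.03-fold, percentile 4.09) lay 15.5 kb into the gene. The T cell marker CD3E was equally without H3K4me3 in both lines.

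The canonical SRC promoter, chr20:37346140, was marked in both lines by H3K4me3. In B2B it also held pol II with 271 reads (240 to 305, 4.30-fold over 62.3) and H3K27ac with 290 reads (258 to 325, 5.58-fold over 51.1). The peak lists differed further downstream. In A549 an H3K4me3 peak 3631 bp long, chr20:37383548-37387178, covered a group of 3 internal SRC start sites 39.0 kb from the gene's first start, 2 of them of coding transcripts. It reached 17.0-fold with 96 reads (77.8 to 117), and a smaller H3K4me3 peak of 29 reads (3.98-fold) stood before it. In B2B no H3K4me3 peak lay in the gene beyond the canonical promoter, and 6 further H3K27ac peaks of 27 to 50 reads were spread between 5.3 and 50.7 kb. CTCF (229 reads, 4.56-fold over 49.5) and Rad21 (283 reads, 10.5-fold over 26.0, percentile 75.9) lay at that internal promoter in B2B, 40.2 kb into the gene. Their A549 counterparts were not analysed here. The other B2B CTCF peaks in SRC had local backgrounds of 2.62 to 10.9 reads. Whether a high local background hid a B2B H3K4me3 peak at the internal promoter was not tested.

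Jun-family binding at start sites was seen at 3 of the 5 genes. In A549 it was found at SRC and LYN, 2 of 5 genes, where 43.8% of protein-coding genes had a Jun-family peak, and in B2B at FYN, 1 of 5 genes, where 25.5% did. By protein, A549 JunB was found at 2 genes (background 31.1%), A549 Jun at 1 (38.2%), A549 JunD at 1 (17.8%), B2B Jun at 1 (25.4%), and B2B JunB (5.28%) and JunD (3.22%) at none. YES1 and LCK had no Jun-family peak at a start site in either line, as had 50.6% of all genes. SRC and LYN thus had a Jun-family peak in A549 and none in B2B, as had 24.0% of genes, and FYN the reverse, as had 5.62%. SRC was the only one of the 5 with all 3 proteins at its start sites in A549 and none in B2B, a state found in 5.79% of protein-coding genes.

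Nearly all of these peaks lay at internal start sites rather than at the canonical promoter. With the canonical start of each gene alone, a setting added after the data were examined, 1 gene and protein pair stayed in A549, against 4 of 15 with all start sites, and 0 stayed in B2B, against 1 of 15. The pair that stayed was JunB at SRC, a weak peak of 17 reads (9.90 to 27.2, 4.01-fold, percentile 4.28) 1.2 kb into the gene. At LYN the single JunB peak, chr8:55938444-55938619, held 20 reads (12.2 to 30.9, 6.89-fold) and lay 1.72 kb before an internal start. At FYN all 5 Jun peaks near start sites were in B2B and lay between 54.6 and 163.3 kb into the gene.

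Across the SRC gene body, 6 Jun-family regions were found, all in A549 alone, and the B2B lists of JunB, Jun and JunD held no peak in the gene. Such a gene body, with regions in A549 alone and none in B2B, was found for 17.9% of protein-coding genes. The strongest region, chr20:37380204-37380790, 35.8 kb into the gene, was bound by Jun at 39.2-fold with 117 reads (96.8 to 140, percentile 95.5), by JunB at 18.5-fold with 82 reads (65.2 to 102, percentile 92.6) and by JunD at 8.33-fold with 38 reads (26.9 to 52.2, percentile 84.1). All 3 summits stood high in their own lists. The second region bound by all 3, chr20:37383259-37383725, lay directly before the internal promoter, with Jun at 13.2-fold and 52 reads, JunB at 10.0-fold and 49 reads, and JunD at 5.58-fold and 21 reads. Another, chr20:37384647-37385207, lay inside the H3K4me3 peak and was bound by Jun at 8.78-fold and JunB at 5.10-fold. The B2B CTCF peak at the internal promoter overlapped it.

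**Figure D3:**
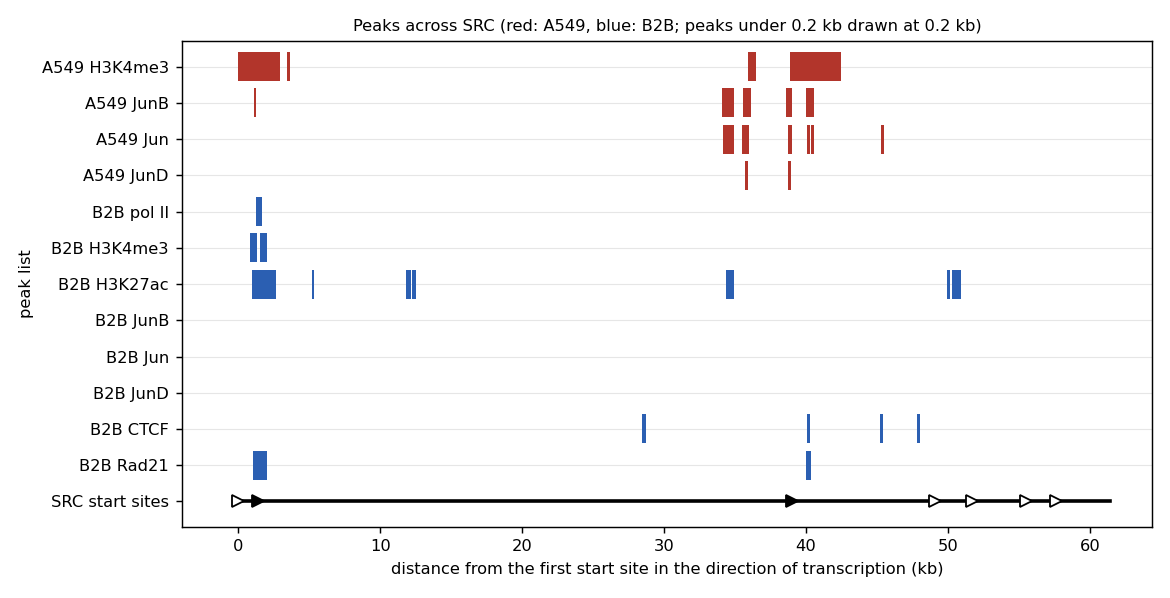
Peaks across SRC in each list that reaches it, by distance in kb from the first start site (A549 red, B2B blue), with start sites of coding (filled) and noncoding (open) transcripts on the gene line; A549 pol II, Med1 and H3K27ac and B2B Med1 end before the gene and are not drawn. JunB, Jun and JunD peaks cluster between 34 and 46 kb in A549 beside the internal H3K4me3 peak, and the B2B Jun-family rows are empty.

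The remaining strong region, chr20:37378770-37379613, 34.3 kb into the gene, was bound in A549 by JunB at 18.8-fold with 76 reads (59.9 to 95.1, percentile 92.9) and by Jun at 15.9-fold with 47 reads (34.5 to 62.5, percentile 74.5), and no JunD peak was listed there. It held the AP-1 motif 7 bp from its highest summit. In B2B the same stretch carried no Jun-family peak but a modest H3K27ac peak of 44 reads (32.0 to 59.1, 3.47-fold, percentile 16.5). The primers that the study used for ChIP-qPCR at SRC fall in this region. They are shown because they place that assay among the 6 regions. In the study that assay measured Fos and not a Jun-family protein.
SRC forward primer: tggcctgaaggactggagat
SRC reverse primer: tccaggtattcgcagagcac
Each matched hg38 exactly at 1 place, and together they bound 138 bp at chr20:37378823-37378960, 34.1 kb into the gene. The amplicon lay wholly within the region bound by JunB and Jun and 1243 bp from the region bound by all 3 proteins.

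FYN showed the opposite arrangement. Its gene body held 10 Jun-family regions, all in B2B alone, and no A549 Jun-family peak. Gene bodies with regions in B2B alone and none in A549 made up 7.49% of protein-coding genes. The strongest of the 10, chr6:111823968-111824429, 49.3 kb into the gene, was bound by Jun at 22.2-fold with 54 reads (40.6 to 70.5, percentile 87.8), by JunB at 7.35-fold with 21 reads (13.0 to 32.1) and by JunD at 7.42-fold with 23 reads (14.6 to 34.5, percentile 80.8). The other 9 were bound by Jun alone, at 5.08-fold to 13.0-fold with 10 to 28 reads. The strongest region also overlapped B2B peaks of pol II (18 reads, 7.11-fold) and H3K4me3 (15 reads, 4.55-fold), with no start site of FYN nearer than 3.9 kb.

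**Figure D4:**
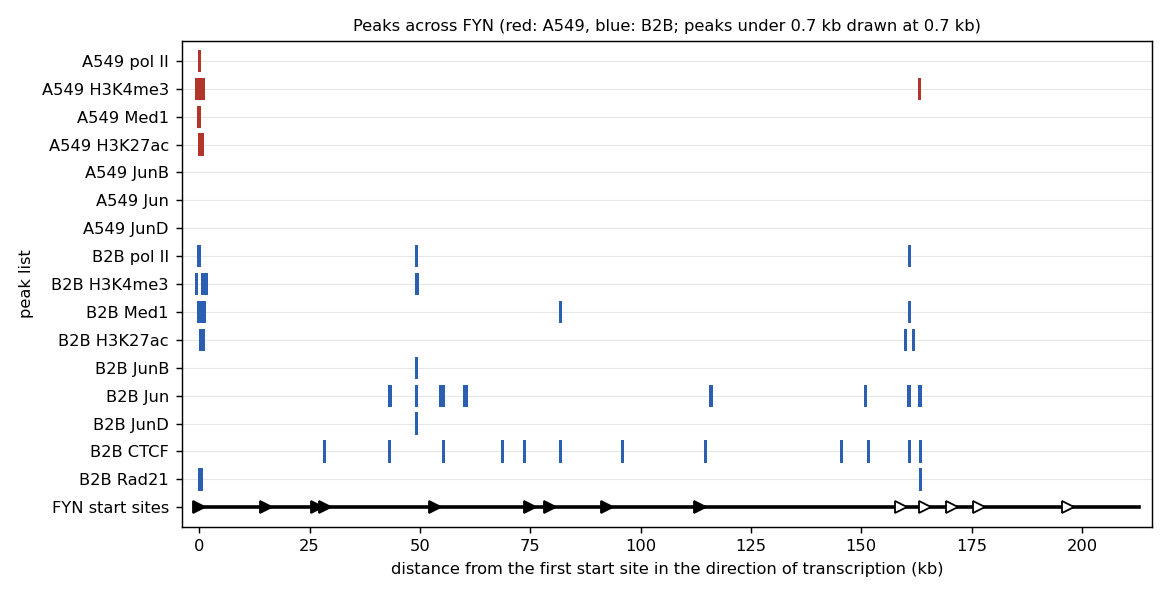
Peaks across FYN in each list, by distance in kb from the first start site in the direction of transcription (A549 red, B2B blue), with start sites of coding (filled) and noncoding (open) transcripts on the gene line. Both lines are marked at 0 kb, the A549 Jun-family rows are empty, and the 10 B2B Jun regions are spread between 43.2 and 163.3 kb.

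A further cluster in FYN stood near noncoding start sites about 160 kb into the gene. There B2B Jun (28 reads, 13.0-fold, at chr6:111712484-111712754) overlapped weak B2B peaks of pol II (19 reads), Med1 (15 reads) and CTCF (12 reads). Nearby, at 163.4 kb, B2B CTCF (81 reads, 32.7-fold, percentile 91.8) and Rad21 (30 reads, 17.5-fold, percentile 92.6) overlapped, the only place within 100 kb of FYN where they did, and an A549 H3K4me3 peak of 34 reads (9.89-fold) covered part of the same site. FYN held 12 CTCF peaks in its body against 2 of Rad21.

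LYN was mixed, with 2 regions in its body in A549 alone and 3 in B2B alone. The strongest, chr8:55948328-55948746, 68.7 kb into the gene, was bound in B2B by Jun at 33.3-fold with 71 reads (55.5 to 89.6, percentile 95.4), by JunB at 6.45-fold with 18 reads and by JunD at 5.56-fold with 15 reads. Only Jun stood high in its list, with JunB at percentile 48.8 and JunD at percentile 52.0. No other target of either line overlapped the region. A site bound by all 3 proteins, strong for Jun, thus stood here in an intron without pol II, H3K4me3, Med1 or H3K27ac. The other 4 were weak, with 14 to 20 reads. YES1 and LCK had no Jun-family region in the gene body in either line.

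Within 100 kb of the genes, 12 Jun-family regions lay around SRC, 5 around YES1, 22 around FYN, 7 around LYN and 9 around LCK. Per 100 kb of sequence searched these were 4.59, 1.72, 5.33, 2.09 and 3.83 regions, against a median of 2.98 for protein-coding genes. FYN stood at the 82.6 percentile of genes, SRC at 74.7, LCK at 63.8, LYN at 32.8 and YES1 at 25.3. Around SRC, 8 regions were bound in A549 alone, 2 in B2B alone and 2 in both. Around FYN none was bound in A549 alone (0%, interval 0 to 14.9), 16 in B2B alone (72.7%, 51.8 to 86.8) and 6 in both.

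The share bound in A549 alone was 66.7% at SRC (39.1 to 86.2), 60% at YES1 (23.1 to 88.2), 66.7% at LCK (35.4 to 87.9) and 42.9% at LYN (15.8 to 75.0). The intervals of these 4 genes overlapped one another, and none of them overlapped that of FYN. More regions in A549 alone than in B2B alone were found at 3 of the 5 genes, against 51.0% of protein-coding genes, and the reverse at 2 of 5, against 33.9%. Taking the 5 genes together, 36.4% of the 55 regions were bound in A549 alone (24.9 to 49.6), 43.6% in B2B alone (31.4 to 56.7) and 20% in both (11.6 to 32.4). Over all regions of the series the shares were 34.1%, 39.4% and 26.5%, inside those intervals. The 5 genes as a set did not stand apart from the series. The A549 shares of SRC and LCK lay above the series share and that of FYN below it. The 3 intervals leave the series share out, at LCK narrowly, with a lower bound of 35.4% against 34.1%. All these intervals count each region on its own, and whether neighbouring regions of a gene are independent was not tested. The series share also covers regions far from genes. The median protein-coding gene had 3 regions in A549 alone and 2 in B2B alone, and whether the shares of SRC, LCK and FYN differ from those around other genes was not tested. The local backgrounds of the Jun lists were alike, with medians of 1.35 reads in A549 and 1.31 in B2B. The Jun list of B2B was longer, with 45047 peaks against 35602, and its JunB list was shorter, with 8563 peaks against 28068. With lists of equal length, the share in A549 alone minus that in B2B alone was −68.4 points at FYN, against −72.7. At LCK it was 28.6 points, against 44.4, and at SRC it stayed at 50.

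**Figure D5:**
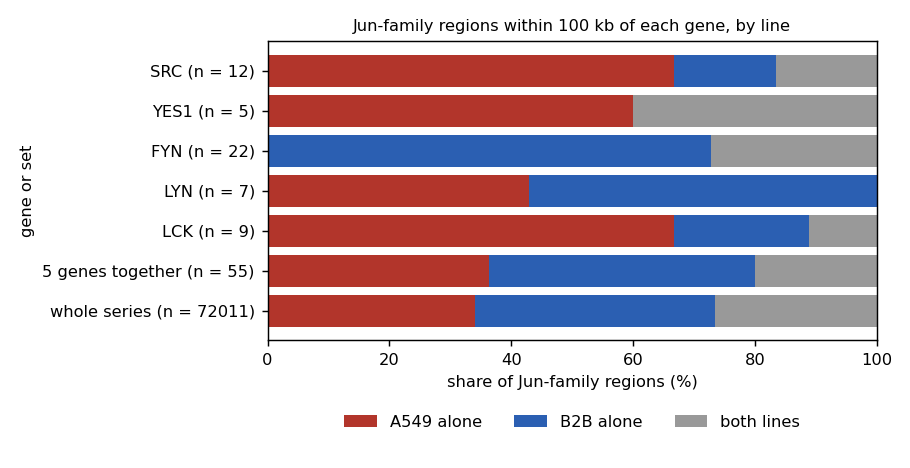
Share, in percent, of the Jun-family regions within 100 kb of each gene that were bound in A549 alone (red), in B2B alone (blue) or in both lines (grey), with the number of regions in brackets, for the 5 genes, all 5 together and the whole series. FYN has no region bound in A549 alone and LYN none bound in both lines.

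The regions bound by all 3 proteins in 1 line and by none in the other were few. In A549 there were the 2 in SRC and 1 near LYN, chr8:56074241-56074795, which lies 0.1 kb from the start of the ribosomal protein gene RPS20 and is marked by pol II, H3K4me3, Med1 and H3K27ac in both lines. Such a region was found within 100 kb of 29.7% of protein-coding genes. In B2B there were 1 in FYN and 1 in LYN, described above, and 6.40% of genes had one. Thus LYN had 1 of each kind.

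The strongest regions bound in both lines lay outside the genes. Before SRC, chr20:37294639-37295639 held JunB, Jun and JunD in A549 as well as in B2B, with Jun at 31.4-fold in A549 and at 39.9-fold in B2B (111 reads, percentile 97.4). Beyond FYN, chr6:111589276-111589708 in an exon of TRAF3IP2, an adaptor gene of interleukin-17 signalling, was bound by JunB and Jun in both lines, with Jun at 28.6-fold in A549 and 35.1-fold in B2B. It overlapped pol II, Med1 and H3K27ac of both lines and held no AP-1 motif near its highest summit. Beyond YES1, chr18:702821-703241 was bound by Jun alone, at 17.6-fold in A549 and 29.0-fold in B2B. Before LCK, chr1:32236101-32236498 in an intron of EIF3I, a translation initiation factor gene, was bound by Jun at 18.6-fold in A549 and 7.75-fold in B2B. LYN had no region bound in both lines.

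The strongest remaining regions of a class were weaker and mostly lay at or in other genes. Around SRC, B2B alone bound chr20:37498365-37498605 in an intron of BLCAP with Jun at 7.81-fold and 17 reads. Around YES1, A549 alone bound chr18:711681-711959, 0.8 kb from the start of ENOSF1, with Jun at 11.8-fold and 28 reads. Around LCK, A549 alone bound chr1:32222274-32222572 at the start of TMEM234 with Jun at 9.94-fold and JunB at 4.46-fold, and B2B alone bound chr1:32151327-32151673 in an intron of KPNA6 with Jun at 6.86-fold. The window of LCK holds 13 other protein-coding genes, against 1 in that of FYN, 3 in those of SRC and LYN and 4 in that of YES1. Of the 9 LCK regions, none lay within the gene.

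Pol II, H3K4me3, Med1 and H3K27ac overlapped larger shares of Jun-family regions in A549 than in B2B, around the 5 genes and over the series. The split by line is thus not particular to these genes. Lists that end before SRC or YES1 leave their regions out, so the lines are not compared over the same genes for every mark. In A549, H3K4me3 overlapped 16 of the 31 regions around the 5 genes (51.6%, 34.8 to 68.0), against 30.6% of all A549 regions. Pol II overlapped 52.4% of 21 regions (32.4 to 71.7, series 43.4%), Med1 37.5% of 16 (18.5 to 61.4, series 33.4%) and H3K27ac 56.2% of 16 (33.2 to 76.9, series 28.9%). In B2B, H3K4me3 overlapped 8.57% of 35 regions (2.96 to 22.4, series 7.65%), pol II 20% (10.0 to 35.9, series 18.5%), Med1 17.2% of 29 (7.60 to 34.5, series 14.9%) and H3K27ac 17.1% (8.10 to 32.7, series 13.7%). The A549 shares of H3K4me3 and H3K27ac thus lay above the series, with intervals that leave it out, and the other 6 did not. These intervals too count each region on its own, and whether neighbouring regions are independent was not tested. The 9 A549 regions with H3K27ac all lay outside the 5 genes, 5 of them around LCK, 3 in TRAF3IP2 beyond FYN and 1 at RPS20 beyond LYN, and SRC and YES1 were not scored. Of the 6 SRC regions in A549 with H3K4me3, 1 lay at the canonical promoter, 3 at or before the internal promoter and 2 at MANBAL.

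CTCF in B2B overlapped 12 of the 22 FYN regions (54.5%, 34.7 to 73.1), against 31.8% of all B2B Jun-family regions, and 3 of the 13 B2B regions around the other 4 genes. Rad21 overlapped 1 of the 22 FYN regions (4.55%, 0.807 to 21.8), against 9.67%. Around FYN as a whole B2B held 30 CTCF peaks and 3 Rad21 peaks, and 1 CTCF peak had Rad21. Around SRC there were 8 CTCF and 5 Rad21 peaks, and 2 CTCF peaks had Rad21. Rad21 was found at 5 of 12 CTCF peaks around YES1, 3 of 13 around LYN and 5 of 10 around LCK. The share of all B2B CTCF peaks with Rad21 was not calculated, so these counts do not set FYN apart.

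The AP-1 motif was found within 50 bp of the summit in 66.7% of 18 A549 JunB peaks around the 5 genes (43.7 to 83.7, 46.2% of the whole list), 46.2% of 26 A549 Jun peaks (28.8 to 64.5, 42.0%) and 50% of 6 A549 JunD peaks (18.8 to 81.2, 34.2%). In B2B it was found in 66.7% of 6 JunB peaks (30.0 to 90.3, 53.6%), 40% of 35 Jun peaks (25.6 to 56.4, 39.8%) and 50% of 4 JunD peaks (15.0 to 85.0, 42.8%). Every interval held the share of its list. FYN had the motif at 6 of 22 B2B Jun peaks (27.3%, 13.2 to 48.2), and SRC at 3 of 8 A549 Jun peaks (37.5%, 13.7 to 69.4). RefSeq promoter windows on GRCh38.p14, from 250 bases before to 50 after a start, were matched for YES1, FYN and LCK. None of their 7 windows held the motif, which 4.95% of 35116 such windows did.

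The other genes of the pathway were taken from lists fixed by name. Of the Src-family relatives, BLK held H3K4me3 in A549 and not in B2B, FRK held it in both lines, and FGR had none in either line. FGR and BLK are kinases of blood cells, and FRK is an epithelial kinase. Among 7 regulators, H3K4me3 was found at 6 in each line, beside 73.7% of all protein-coding genes in A549 and 62.8% in B2B, and the exception was the CSK relative MATK. Jun was found at 3 regulators in A549, namely the phosphatase genes PTPRA, PTPN1 and PTPN11, and at 2 in B2B, CSK and PTPN11, beside 38.2% and 25.4% of all genes. Among 7 substrates, including the focal adhesion genes PTK2, BCAR1 and PXN, H3K4me3 was found at all in both lines, and Jun at 6 in A549 and at 7 in B2B. JunB was found at 5 substrates in each line, beside 31.1% of all genes in A549 and 5.28% in B2B. The shares of all genes with H3K4me3 and Jun are those given for the regulators. PTK2, which encodes focal adhesion kinase, had 17 regions bound in B2B alone and 2 in A549 alone, a split toward B2B as at FYN, and FRK had 6 in A549 alone and none in B2B alone.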

How the data were processed

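ChIP-seq lists of 9 targets in B2B and 7 in A549 were used, and input chromatin was not analysed here. Per the labels and the study's methods, alignment to hg38 used Bowtie2 2.4.4. After removal of duplicates the authors merged the replicates, scaled them by CPM (SAMtools 1.13) and called peaks (MACS2 2.2.7.1). The control and options of the caller are not given in the sources used here. The 16 deposited lists hold for each peak a score, which is 10 times −log10 q rounded down. They also hold the fold enrichment as a ratio, and the authors' −log10 p-value and −log10 q-value. These were used within a list, except that fold enrichments were summed over the Jun-family lists to choose the regions named and are set side by side for both lines.

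Start sites and gene spans came from GENCODE release 44. Peaks were intersected in Python 3.11.15 with pandas 2.3.3 at a minimum overlap of 1 bp. Peaks of the 6 Jun-family lists were merged into regions, and a region was shared if both lines had a peak in it. Reads and background were solved from fold enrichment and p-value with SciPy 1.17.1, and all of 300 sampled peaks per list gave reads within 0.05 of a whole number. The interval code was tested on simulated data, where 8 of 8 counts equalled those of bedtools 2.31.1. Sequence was read with pysam 0.24.0. Genes were scored only in lists that reach them.

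The text covers every list at the start sites, by its count of genes, its strongest peak in a plot or single peaks, and names, for each gene, the Jun-family region of highest summed fold enrichment bound in A549 alone, in B2B alone and in both, with all regions bound by 3 proteins in 1 line and none in the other. The SRC regions at 34.3 and 40.2 kb, the FYN sites near 160 kb and the 2 split genes of the pathway lists were named after their values were seen. The genes, lists and rules were chosen with earlier results of these data known. No sequence of LYN is shown, and some genes of the lists are not reported here.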

Additional observations from a re-analysis of the deposited data

How the results depend on the processing

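Of 118 values under other settings for 36 results, 112 stayed within the limits set. The limits were 1.5 times a count, the Wilson 95% interval of a share or the Wald 95% interval of a difference between shares. A change of direction was possible only for the differences between shares, and none of these changed direction. With a −log10 q of at least 5, Med1 was found at 1 gene in A549 instead of 2. With lists of equal length, B2B H3K27ac was found at 2 genes instead of 4. That setting also cut the B2B list where the A549 H3K27ac list ends, on chromosome 13. SRC on chromosome 20 and YES1 on chromosome 18 therefore could not be found, and the fall says nothing about list length. With the canonical start only, added after the data were examined, Jun-family gene and protein pairs fell to 1 in A549 and 0 in B2B. Within 50 kb of the gene, the share of FYN regions bound in A549 alone minus that in B2B alone was −92.3 points instead of −72.7. Within 100 bp of the summit, 100% of the 4 B2B JunD peaks held the motif instead of 50%. The causes of the other changes were not tested. For SRC the share in A549 alone minus that in B2B alone lay between 45.5 and 60 points under all 5 settings. One of these, a reciprocal overlap of 50% for shared regions, could not change any such difference, because it relabels shared regions only. Its unchanged differences are among the 112 values and are no sign of stability. No paired analysis was possible because replicates were merged before peaks were called, and for the same reason no replicate could be left out. Every value rests on 1 pool, and counting intervals do not cover differences between cultures.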
